A study of Homo sapiens with 3 samples.

Results

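The genes examined here encode the protein factors that drive the elongation step of translation: EEF1A1, EEF1A2, EEF1B2, EEF1D, EEF1G, EEF2 and EIF5A. They were chosen by name, and ribosome peaks were assigned to them by the RefSeq transcript named in each peak's annotation, or by the nearest gene where that transcript could not be matched to a gene. All 7 held at least 1 peak in at least 1 sample, out of 3799 genes in the 3 peak lists. By sample, 6 of the 7 held a peak in cells expressing empty vector, 7 in cells expressing wild-type DDX3X and 5 in cells expressing DDX3X G325E. Of the 3799 genes, 2108, 3178 and 2426 did in the same order.

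The study examined whether a cancer-associated mutation in DDX3X, an RNA helicase, alters the position of ribosomes on mRNAs. HEK293T cells, a human embryonic kidney line, were transiently transfected for 24 h with pCDNA3.1, either empty or carrying wild-type or G325E DDX3X with a FLAG tag, and ribosome-protected fragments were sequenced. All 3 samples carried the same cell background and the same drug treatment, which the labels give as harringtonine at 2 µg/ml for 90 s and then cycloheximide at 100 µg/ml. Harringtonine holds initiating ribosomes at start codons and cycloheximide stops elongating ones. The study's methods name only cycloheximide, and which description holds was not settled by the files. Each construct was represented by 1 library, with no replicates, so the values below are set side by side, without a test, and the spread between cultures is not known.

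The lists held 11219 peaks in vector, 19920 with wild-type DDX3X and 15680 with G325E, with median lengths of 29, 29 and 30 bp. They give positions and annotations only, with no height or read count, so the reads behind a peak are unknown. By the study's own read table, the wild-type library had the most non-duplicated mapped reads and the G325E library the fewest. A peak had to reach a coverage cut-off, so a missing peak is not shown to be a missing ribosome, and the part of depth in the differences below was not tested. Peaks on DDX3X itself numbered 0 in vector, 32 with wild-type DDX3X and 9 with G325E. The labels also call the cells neuronal. Of 8 neuronal marker genes chosen for this check after the data were seen, 3 (TUBB3, NEFL and NEFM) held peaks and RBFOX3, MAP2, SYP, SNAP25 and SYT1 held 0 in each sample.

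During elongation eEF1A, bound to GTP, delivers each aminoacyl-tRNA to the ribosome. It is encoded by EEF1A1, the form used by most tissues, and by EEF1A2, the form known from adult neurons and muscle. The eEF1B complex restores GTP on eEF1A, with exchange activity in the EEF1B2 and EEF1D subunits and a scaffold in EEF1G. eEF2 then moves the ribosome along the mRNA, and eIF5A, the only protein known to carry hypusine, helps peptide bonds form at difficult sequences. Most of these mRNAs belong to the terminal oligopyrimidine class, whose translation is coordinated with that of ribosomal proteins.

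The coding sequences of EEF1A1 and EEF1A2 are shown first because the 2 genes encode nearly the same protein. Both held peaks with wild-type DDX3X, whereas only EEF1A1 did in vector and only EEF1A2 in G325E. Over 1386 bases of coding sequence compared in frame, 1081 were identical (77.99%). Of the 305 differences, 252 (82.6%) fell at the third base of a codon, and in 219 only EEF1A2 had G or C, against 25 in which only EEF1A1 did. Apart from the start, the windows were taken from stretches covered in EEF1A1 with wild-type DDX3X and in EEF1A2 with G325E. In those windows the wild-type coverage of EEF1A1 and the G325E coverage of EEF1A2 were thus set by the choice and are not a result. In each pair below, capitals mark the bases that differ between the genes (GRCh37, minus strand, given in the sense of the mRNA).
EEF1A1 start, codons 1 to 10, chr6:74229720-74229749: atgggAaaggaAaagacTcaTatcaacatT
EEF1A2 start, codons 1 to 10, chr20:62129087-62129116: atgggCaaggaGaagacCcaCatcaacatC
EEF1A1 codons 235 to 244, chr6:74228461-74228490: atcctAccAccAacTcgTccAacTgacaag
EEF1A2 codons 235 to 244, chr20:62124530-62124559: atcctGccCccCacGcgCccCacGgacaag
EEF1A1 codons 442 to 451, chr6:74227569-74227598: gaCaagaagGCTgCTggAgcTggcaaggtc
EEF1A2 codons 442 to 451, chr20:62119690-62119719: gaGaagaagAGCgGCggCgcCggcaaggtc

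The 3 EEF1A1 windows had GC contents of 33.3%, 50.0% and 60.0%. The matching EEF1A2 windows had 50.0%, 73.3% and 70.0%. In EEF1A1 the 3 windows lay wholly under wild-type peaks and under 27, 30 and 30 bases of vector peaks, with 0 bases under a peak in G325E. In EEF1A2, 0 bases of each window lay under a vector peak and all 30 of each lay under a G325E peak, whereas wild-type peaks covered the start window alone. In a further pair of this kind, codons 215 to 224, EEF1A1 was covered by wild-type alone and EEF1A2 by G325E alone, with 0 bases under a vector peak in either gene.

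For the other factors, the stretches shown are those that lay under peaks in the samples named. The codon of EEF2 whose histidine is modified to diphthamide, the target of diphtheria toxin, and the codon of EIF5A whose lysine becomes hypusine are in capitals. They are followed by the middle of the longest EEF1G stretch covered in all 3 samples (110 bp) and the middle of the longest EEF1B2 stretch covered in vector and wild-type alone (66 bp), with no base in capitals.
EEF2 codons 711 to 720, chr19:3977516-3977545, minus strand: gccgacgccatcCACcgcggagggggccag
EIF5A codons 46 to 55, chr17:7213090-7213119, plus strand: tcgaagactggcAAGcacggccacgccaag
EEF1G codons 234 to 243, chr11:62334406-62334435, minus strand: gagaagggttcacgggaagagaagcagaag
EEF1B2 codons 117 to 126, chr2:207026780-207026809, plus strand: aggctaagggaagaacgtcttgcacaatat

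The codon for diphthamide in EEF2 (codon 715) and that for hypusine in EIF5A (codon 50) each lay wholly under a peak in all 3 samples. In EIF5A the hypusine codon was in the last G325E peak of the coding sequence. The EEF1B2 stretch, of 43.3% GC, had 30 of 30 bases covered in vector and wild-type and 0 in G325E.

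Peaks credited to the 7 genes numbered 93 in vector, 111 with wild-type DDX3X and 77 with G325E, which was 8.29, 5.57 and 4.91 per 1000 listed peaks. Most lay in coding sequence, taken as the exon class of the HOMER annotation: 66 in vector, 73 with wild-type DDX3X and 54 with G325E. Further peaks lay at the 7 loci but were credited by the annotation to small RNA genes inside them, or to the neighbouring GPS2. These numbered 13 in vector, 28 with wild-type DDX3X and 16 with G325E, of which 12, 26 and 16 lay in the factors' coding sequence. No peak on the genes' strand overlapped the small RNAs SNORD51, SNORA41 or SNORD37 themselves. Positions and coverage below therefore use every peak within the canonical transcript of a factor on its strand, whichever gene it was credited to, and these are called locus peaks. Coding locus peaks numbered 79 in vector, 102 with wild-type DDX3X and 69 with G325E, and covered 34.3%, 47.4% and 30.8% of the 7 coding sequences.

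**Figure D1:**
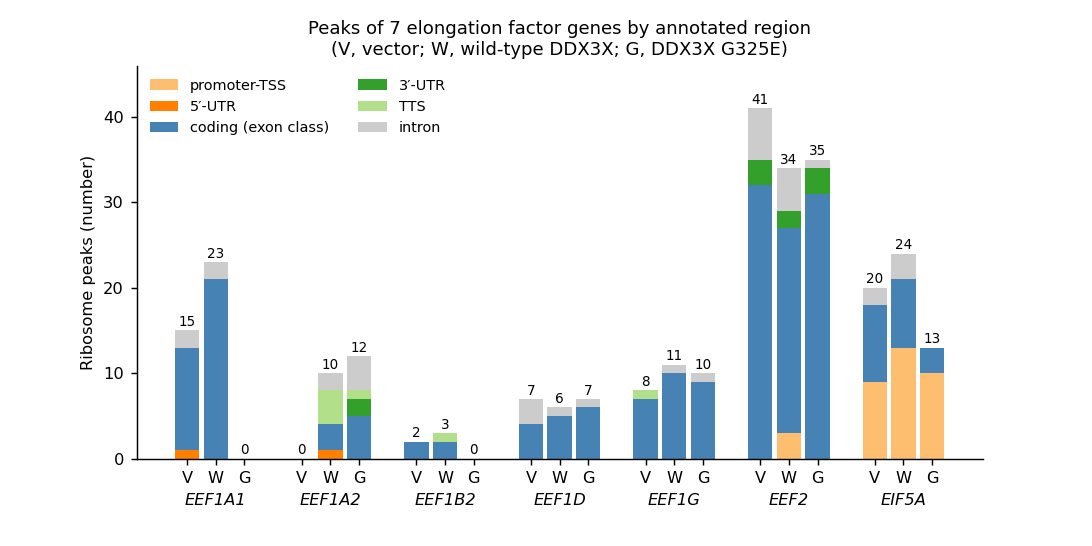
Number of ribosome peaks credited to each of the 7 genes (vertical axis) in vector (V), wild-type DDX3X (W) and DDX3X G325E (G), with colours for the annotated region and the total above each bar. EEF1A1 goes from 15 and 23 peaks to 0 in G325E, EEF1A2 from 0 in vector to 10 and 12, and EEF2 holds 41, 34 and 35.

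EEF1A1 (GRCh37 chromosome 6, 74225473 to 74230755, minus strand, 8 exons, 462 codons) had 15 peaks in vector, 23 with wild-type DDX3X and 0 with G325E. Its coding peaks numbered 12, 21 and 0. In vector 1 peak was annotated to the 5′-UTR, and vector and wild-type each had 2 intron peaks. Vector and wild-type thus held many peaks on this mRNA and G325E held none anywhere at the locus, on either strand.

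In vector the EEF1A1 peaks covered 486 coding bases (35.0%) in 5 of 7 coding exons, and in wild-type 903 bases (65.0%) in 7 of 7. The start codon and the stop codon were covered in both. The 2 exons without a vector peak were adjacent, exon 3 (codons 49 to 108) and exon 4 (codons 109 to 207), of which wild-type peaks covered 80.6% and 59.3%. Of the vector bases, 89.7% were also under a wild-type peak, and 4 peaks had the same first and last base in both samples. The difference between vector and wild-type thus lay mainly in the stretch from codon 49 to codon 207.

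Peaks are numbered along the genome in each list, and some numbers are skipped in the vector and wild-type lists but none anywhere in the G325E list, which therefore says nothing at a locus. At the EEF1A1 locus 0 numbers were skipped for vector and 3 for wild-type. GENCODE lists 49 processed or other pseudogenes of EEF1A1, and 7 of them held peaks: 5 peaks in vector, 19 with wild-type DDX3X and 1 with G325E. EEF1A1P9 (chromosome 4) had 6 in wild-type and 0 in the other samples. How the alignment divided reads that match the gene and its copies was not tested, and the numbers on EEF1A1 carry that uncertainty.

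EEF1A2 (chromosome 20, 62119367 to 62130436, minus strand, 8 exons, 463 codons) had 0 peaks in vector, 10 with wild-type DDX3X and 12 with G325E. In wild-type they were 3 coding, 1 5′-UTR, 4 TTS (near the transcript end) and 2 intron peaks. In G325E they were 5 coding, 2 3′-UTR, 1 TTS and 4 intron peaks. The vector list skipped 0 numbers at this locus and the wild-type list 3.

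Of these peaks, 3 of 10 in wild-type and 2 of 12 in G325E were antisense to the gene. On the gene's own strand the coding locus peaks numbered 0 in vector, 3 with wild-type DDX3X and 5 with G325E and covered 102 bases (7.33%) in wild-type and 316 (22.7%) in G325E. The start codon was covered in wild-type and in G325E. In wild-type the start was covered by a 100 bp peak that reached from the 5′-UTR to codon 10, and in G325E by a 149 bp peak that reached to codon 28.

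The G325E peaks of EEF1A2 lay in exon 2 (70.8% covered), exon 5 (66.2%) and exon 8 (89.1%, with the stop codon). Those of wild-type lay in exon 2 (64.6%) and at the edge of exon 8 (7.03%). Exons 3, 4, 6 and 7 had no peak in any sample. Of the 102 wild-type bases, 82.4% were also covered in G325E. GC at the third base of codons was 89.0% in EEF1A2 against 48.2% in EEF1A1, and coding GC was 62.1% against 48.2%.

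**Figure D2:**
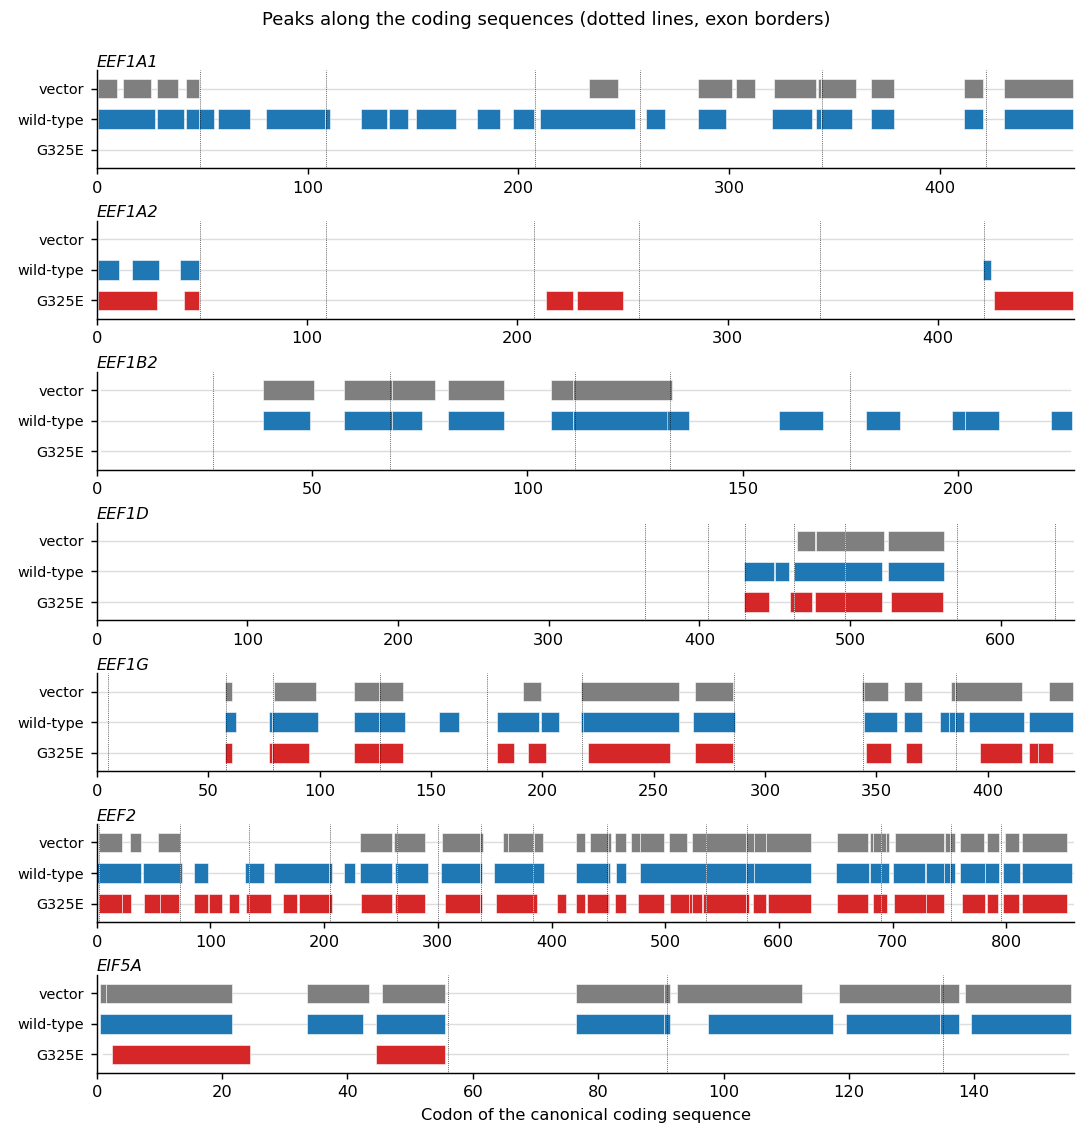
Ribosome peaks along the canonical coding sequence of each factor (horizontal axis, codon number) in vector (grey), wild-type DDX3X (blue) and DDX3X G325E (red), with dotted lines at exon borders. EEF1A1 and EEF1B2 have no red bars, EEF1A2 has no grey bars, EEF2 is covered along most of its length in each sample, and the red bars of EIF5A end at codon 55.

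Among the subunits of the exchange factor, EEF1B2 (chromosome 2, 207024619 to 207027652, plus strand, 6 exons, 225 codons) had few credited peaks, 2 in vector, 3 with wild-type DDX3X and 0 with G325E. The annotation gave most peaks on its coding exons to SNORD51 and SNORA41, small nucleolar RNAs in its introns. With these, coding locus peaks numbered 6 in vector, 12 with wild-type DDX3X and 0 with G325E, so that G325E lacked peaks on the locus as well as in the credited numbers.

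EEF1B2 coding bases under a peak were 211 (31.1%) in vector and 300 (44.2%) in wild-type. Vector peaks lay in exons 2 to 4, from codon 39 to codon 133, and wild-type peaks in exons 2 to 6, with the stop codon covered. Of the vector bases, 93.8% were shared with wild-type, and 3 of the 6 vector peaks had the same borders in wild-type. Coding GC was 46.6%, the lowest of the 7 genes. No number was skipped at this locus in the vector and wild-type lists.

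EEF1D (chromosome 8, 144661898 to 144679585, minus strand) had 7 peaks in vector, 6 with wild-type DDX3X and 7 with G325E, of which 4, 5 and 6 were coding. Their nearest gene in the files is NAPRT, and they reached EEF1D through the RefSeq transcript in the annotation matched to RefSeq's gene table. With transcript and gene pairs from the files alone, EEF1D had 0 peaks. Antisense to EEF1D lay 2 of the vector peaks, 1 of the wild-type peaks and 1 of the G325E peaks. The vector list skipped 2 numbers at this locus. The 3 samples were close in number, and this was the most GC-rich coding sequence of the 7 (64.8%).

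The canonical EEF1D transcript encodes a long form of 647 codons, and 9 other transcripts share a form of 281 codons. All coding peaks lay in exons 6 to 8, which both forms contain. On the shorter form they ran from codon 104 to 178 by midpoint in vector, from 74 to 178 in wild-type and from 72 to 178 in G325E, and covered 32.5%, 43.5% and 38.3%. Exon 6 had no vector peak and was covered over 87.0% in wild-type and 57.0% in G325E. On exons 7 and 8 the 3 samples were alike: 89.1%, 99.01% and 92.1% of exon 7 and 83.3%, 81.5% and 78.4% of exon 8 were covered. No peak touched the long exon 3 (1091 coding bp), which the shorter form lacks.

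EEF1G (chromosome 11, 62327068 to 62341363, minus strand, 10 exons, 437 codons) had 8 peaks in vector, 11 with wild-type DDX3X and 10 with G325E. The coding locus peaks, including those credited to MIR3654, numbered 13, 18 and 14, and covered 38.8%, 50.2% and 35.3% of the coding sequence. EEF1G was thus present in every sample, with G325E close to vector. Of the G325E bases, 98.7% were also covered in wild-type and 86.4% in vector.

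Exon 7 of EEF1G (codons 218 to 286) was well covered in every sample, at 87.3% in vector, 89.8% with wild-type DDX3X and 78.5% with G325E. Exons 1 and 2 had no peak in any sample, and the nearest peak to the start codon lay 170 coding bases away in each. Exon 8 (173 bp, 47.98% GC) was likewise empty but for 1 vector peak of no length. The stop codon was covered in vector and wild-type, whereas in G325E the last peak ended 28 coding bases before it.

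EEF2 (chromosome 19, 3976054 to 3985461, minus strand, 15 exons, 858 codons), the translocase, had the most peaks of the 7 genes in each sample: 41 in vector, 34 with wild-type DDX3X and 35 with G325E. Of these, 32, 24 and 31 were coding and 3, 2 and 3 lay in the 3′-UTR. Intron peaks numbered 6, 5 and 1, and wild-type alone had promoter-TSS peaks (3). With the peaks that the annotation gave to SNORD37, a small nucleolar RNA in an intron, coding locus peaks numbered 35, 34 and 42.

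These peaks covered 1551 bases (60.2%) of the EEF2 coding sequence in vector, 1980 (76.8%) with wild-type DDX3X and 1808 (70.2%) with G325E. Of the bases covered in G325E, 93.7% were covered in wild-type and 77.2% in vector. Of 36 merged coding sites, 24 held a peak in all 3 samples, 5 in wild-type and G325E, 2 in vector and wild-type, 3 in G325E alone and 2 in wild-type alone. Most EEF2 sites were thus occupied in every sample. Of the bases under a G325E or wild-type peak, 80.9% were under both, and vector shared 71.0% in this way with G325E and 75.0% with wild-type.

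In 2 adjacent exons vector had no peak while the other samples did. Exon 3 (codons 73 to 134) was covered over 0% in vector, 24.7% with wild-type DDX3X and 53.8% with G325E, and exon 4 (codons 134 to 204) over 0%, 86.3% and 81.1%. Wild-type covered more bases than vector in other exons too, such as exon 2 (208 against 144). From exon 5 onwards each exon was covered over at least 44.4% in every sample, and exon 11 over 99.1% in each. The vector list skipped no number at EEF2. Their GC contents (58.2% and 62.3%) lay within the range of the other EEF2 exons. The start codon was under a peak in wild-type alone (2 of 3 bases), and the first peak lay 2 coding bases from it in vector and in G325E.

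**Figure D3:**
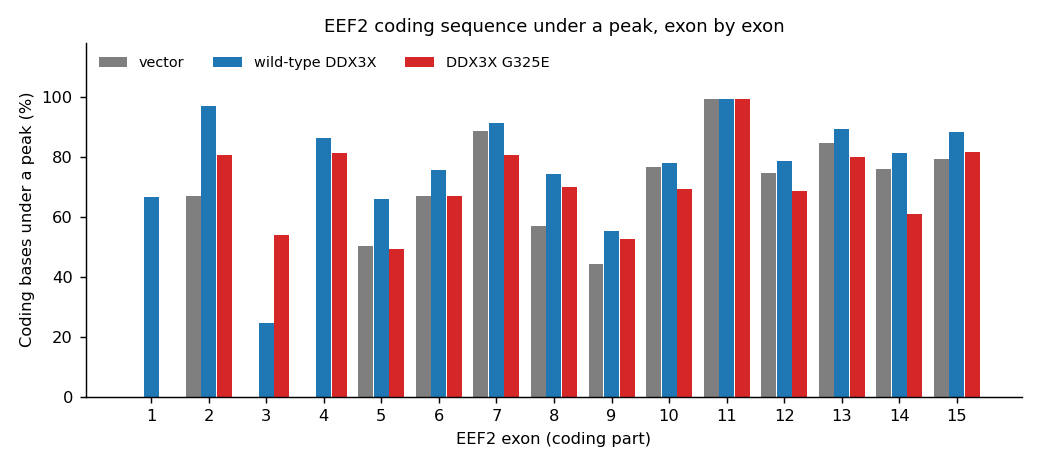
Share of coding bases under a ribosome peak in each EEF2 exon (horizontal axis, exon number) for vector (grey), wild-type DDX3X (blue) and DDX3X G325E (red). Exons 3 and 4 have no vector bar, while wild-type and G325E cover 24.7% and 53.8% of exon 3 and 86.3% and 81.1% of exon 4.

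EIF5A (chromosome 17, 7210947 to 7215782, plus strand, 6 exons, 154 codons) had 20 peaks in vector, 24 with wild-type DDX3X and 13 with G325E. Coding peaks numbered 9, 8 and 3, and promoter-TSS peaks 9, 13 and 10. Promoter-TSS peaks were thus 9 of 20, 13 of 24 and 10 of 13. Against vector, G325E had fewer coding and intron peaks and 1 more promoter-TSS peak. Against wild-type it had fewer of each class.

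On the coding sequence of EIF5A, vector and wild-type peaks covered 68.4% and 68.2%, in 4 of 4 coding exons, and 93.4% of the wild-type bases were shared with vector. In G325E 20.6% was covered, in the first coding exon alone, where 58.2% lay under a peak against 69.7% in vector and 72.7% in wild-type. The next exons were empty in G325E, although vector and wild-type covered 38.1% of exon 3 in both, 80.3% and 78.8% of exon 4 and 90.5% and 84.1% of exon 5. Exon 2, which kept peaks, was 54.5% GC, exon 3 was 41.0%, exon 4 56.1% and exon 5 50.8%. The vector and wild-type lists each skipped 1 number at EIF5A.

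Upstream of the start codon, 21 merged sites held EIF5A peaks, of which 4 held a peak in all 3 samples. Another 3 were shared by wild-type and G325E, none by vector with only 1 of the others, and 4, 6 and 4 were found in vector, wild-type or G325E alone. They lay up to 2660 bp from the start codon, and GENCODE's 11 EIF5A transcripts place 6 of 9 vector, 10 of 13 wild-type and 8 of 10 G325E promoter-TSS peaks in an exon of some transcript. Canonical exon 1, a 5′-UTR exon of 125 bp, was covered by a 115 bp and an 8 bp peak in G325E and by none in vector or wild-type.

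**Figure D4:**
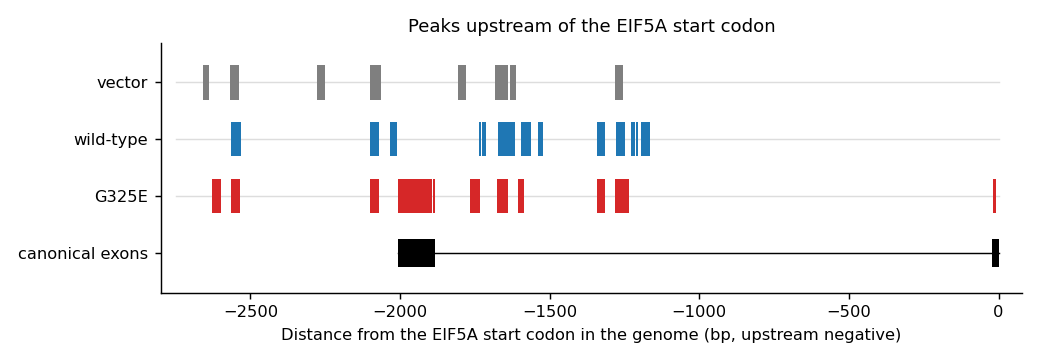
Peaks credited to EIF5A upstream of its start codon (horizontal axis, genomic distance in bp) in vector (grey), wild-type DDX3X (blue) and DDX3X G325E (red), with the canonical exons in black. Canonical exon 1 lies under G325E peaks of 115 and 8 bp and under none of the other samples, and 4 of 21 sites hold a peak in all 3 samples.

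Taken over the 7 coding sequences, 57 coding exons could hold peaks, and 34 did in vector, 43 with wild-type DDX3X and 28 with G325E. Of 108 merged coding sites, 40 held a peak in all 3 samples, 27 in vector and wild-type, 9 in wild-type and G325E, and 0 in vector and G325E without wild-type. Wild-type alone held 23, G325E alone 7 and vector alone 2. Of the 27 sites of vector and wild-type, 11 lay in EEF1A1, 6 in EEF1B2 and 7 in EIF5A, so that 3 genes held most of the 27. Coding sites and exons were not counted over all genes, so these numbers have no background share and are a description only.

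The credited peaks were also compared by overlap of at least 1 bp. Of 77 G325E peaks, 77.9% overlapped a wild-type peak (interval 67.5 to 85.7) and 64.9% a vector peak (53.8 to 74.7), where 47.3% and 35.4% of all listed G325E peaks did. These shares differed between genes, and EEF2 gave the most peaks. A wild-type and a vector peak were met by 33 and 32 of 35 in EEF2, and by 9 and 7 of 10 in EEF1G. The numbers were 10 and 7 of 13 in EIF5A, 5 and 4 of 7 in EEF1D, and 3 and 0 of 12 in EEF1A2. EEF1A1 and EEF1B2 had no G325E peak and do not enter these shares. In the other direction, 45.9% of 111 wild-type peaks and 52.7% of 93 vector peaks overlapped a G325E peak, where 34.9% and 48.1% of all listed peaks did. Of the vector peaks, 80.6% overlapped a wild-type peak, and 57.7% of those with wild-type DDX3X met one of vector, where 76.7% and 41.6% of all listed peaks did. Peaks with the same first and last base at the loci numbered 16 between wild-type and vector (16.2% of vector locus peaks and 12.3% of wild-type), 8 between G325E and wild-type (9.20% of G325E and 6.15% of wild-type) and 6 between G325E and vector (6.90% of G325E and 6.06% of vector). Over the whole lists 12.1% of vector and 6.79% of wild-type peaks had the same borders in both, as did 4.98% of G325E and 3.92% of wild-type peaks, and 4.08% of G325E and 5.70% of vector peaks.

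GC content moved with these differences, and its part in them was not tested. The genes with no G325E coding peak, EEF1A1 and EEF1B2, had the lowest coding GC (48.2% and 46.6%), followed by EIF5A (51.4%) and EEF1G (54.5%), while EEF2, EEF1A2 and EEF1D lay at 60.8%, 62.1% and 64.8%. GC around coding peaks (31 nt) averaged 58.2% in vector, 56.2% with wild-type DDX3X and 63.0% with G325E over the 7 genes. These means pool different mixes of genes. EEF2 held 35 of 79, 34 of 102 and 42 of 69 of the peaks in the same order. EEF1A1 held 12 in vector and 21 with wild-type DDX3X, EEF1B2 held 6 and 12, and neither had any in G325E. Within genes found in all samples the means moved by unequal amounts. In EEF2 the mean was 63.6% (SD 8.26) for 35 vector peaks, 62.2% (SD 9.38) for 34 wild-type peaks and 64.2% (SD 8.69) for 42 G325E peaks. In EEF1G it was 54.3%, 56.1% and 56.0%. In EEF1D, with 4, 5 and 6 peaks, it was 69.4%, 65.8% and 71.0%. In EIF5A, with 9, 9 and 2 peaks, it was 56.3%, 53.8% and 62.9%.

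EEF1A1 belongs to the class of 45 to 50% coding GC. Of the 120 genes of that class with at least 5 wild-type coding peaks, 61 (50.8%, interval 42.0 to 59.6) had no coding peak in G325E and 29 (24.2%) had none in vector. Of the 33 with at least 10 wild-type coding peaks, 13 (39.4%, interval 24.7 to 56.3) had none in G325E and 4 (12.1%) had none in vector. In the class of 60 to 65%, which holds EEF2 and EEF1D, 28.4% of 162 genes had no G325E coding peak and 34.0% no vector coding peak. The genes of these classes were chosen by their wild-type peaks, as EEF1A1 would be, so the shares are a description and nothing about EEF1A1 follows from them.

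**Figure D5:**
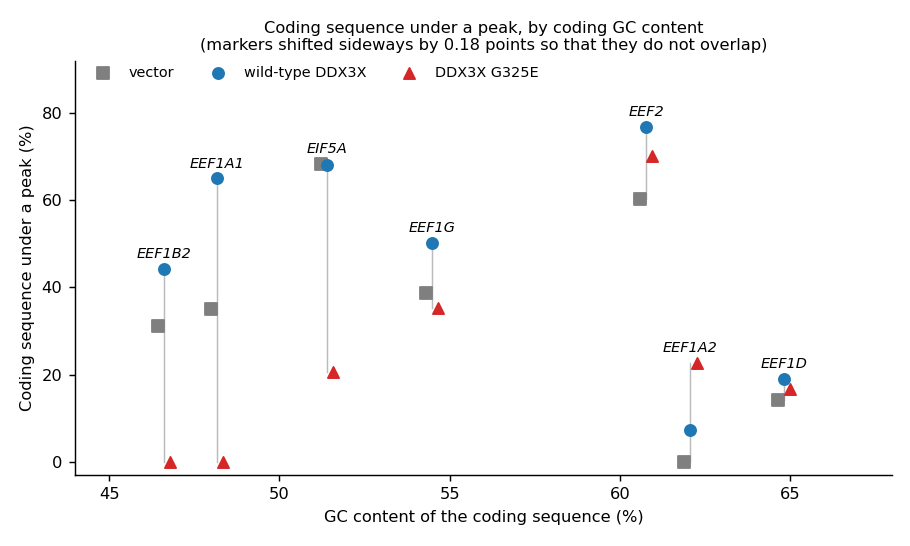
Share of each coding sequence under a ribosome peak (vertical axis, %) against the GC content of that coding sequence (horizontal axis, %), for vector (grey squares), wild-type DDX3X (blue circles) and DDX3X G325E (red triangles). G325E lies at 0% for EEF1B2 and EEF1A1, at 20.6% for EIF5A against 68.4% and 68.2%, and between vector and wild-type for EEF2 and EEF1D.

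The share of peaks in the 5′-UTR, out of 5′-UTR, coding and 3′-UTR peaks, was 1 of 70 in vector (1.43%, interval 0.253 to 7.66), 1 of 76 with wild-type DDX3X (1.32%, interval 0.233 to 7.08) and 0 of 59 in G325E (interval 0 to 6.11). These are few peaks, and their order depends on how the region is set. With locus peaks placed on the canonical transcript the shares were 2 of 85 (2.35%), 2 of 108 (1.85%) and 3 of 77 (3.90%), the last all on EIF5A. Over all genes the shares were 9.07%, 8.85% and 19.2%. A low share in G325E was not particular to the factors: it was 6.47% in the large-subunit and 5.56% in the small-subunit ribosomal protein genes and 0% in the eIF3 genes. Promoter-TSS peaks, which can include 5′-UTRs, made up 9.68%, 14.4% and 13.0% of the factors' peaks, and 23.0%, 21.1% and 34.7% of all peaks. Apart from the 3 wild-type peaks of EEF2, all of the factors' promoter-TSS peaks were on EIF5A.

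By midpoint on the canonical transcript, 22 of 67 credited coding peaks of the 7 genes lay in the 5′ 50% of the coding sequence in vector (32.8%, interval 22.8 to 44.7), 34 of 76 with wild-type DDX3X (44.7%, interval 34.1 to 55.9) and 22 of 53 in G325E (41.5%, interval 29.3 to 54.9). Over all genes the shares were 50.2%, 48.3% and 63.0%. With coding locus peaks of the 7 genes they were 28 of 79 (35.4%), 47 of 102 (46.1%) and 33 of 69 (47.8%). The order of wild-type and G325E thus depended on whether credited or locus peaks were used. Peaks of 1 gene share their transcript, and these intervals cover counting error only, so they do not decide whether the samples differ. In EEF2, the gene with the most coding locus peaks, 12 of 35 in vector, 16 of 34 in wild-type and 21 of 42 in G325E lay in the 5′ 50%. Vector had no peak in exons 3 and 4, where G325E had 7 and wild-type 5.

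Peak numbers were then compared between samples after scaling to the same total, over genes with at least 5 peaks in the higher sample. In this comparison 6 of the 7 factors could be tested and EEF1B2 could not, as it had too few credited peaks. Its locus peaks, 6 in vector, 12 with wild-type DDX3X and 0 with G325E, would have reached the minimum. The numbers of factors below thus leave out its lack of G325E peaks. In G325E against wild-type, 1 factor was at least 2-fold lower (EEF1A1, at 0), where 31% of 2273 genes were, and 0 were at least 2-fold higher, where 28.1% were. The other ratios ran from 0.688 (EIF5A) to 1.52 (EEF1A2), with EEF2 at 1.31, EEF1G at 1.16 and EEF1D at 1.48.

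In G325E against vector, EEF1A1 (at 0) and EIF5A (ratio 0.465) were at least 2-fold lower, where 23.3% of 1834 genes were. EEF1A2, with 0 peaks in vector, was the 1 factor counted as higher, where 38.6% were. In wild-type against vector, EEF2 (0.467) and EEF1D (0.483) were at least 2-fold lower, where 16.5% of 1833 genes were. EEF1A2 was again the 1 higher, where 31.9% were. The comparisons share samples and are not independent. The calls of EIF5A, EEF2 and EEF1D rested on the scaling. With raw peak numbers their ratios were 0.65, 0.829 and 0.857, and none passed 2-fold. Those of EEF2 and EEF1D rested also on which gene a peak was credited to. EEF2 locus peaks numbered 44 in vector and 43 with wild-type DDX3X, and those of EEF1D 5 in each. Wild-type peaks covered more EEF2 coding bases than vector peaks (1980 against 1551).

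Among the ribosomal proteins, whose mRNAs are in the same terminal oligopyrimidine class, 6 of 31 tested large-subunit genes and 3 of 18 small-subunit genes were lower by 2-fold or more in the G325E to wild-type comparison, and 3 and 1 were higher. For the eIF3 subunits of the initiation machinery these numbers were 3 lower and 0 higher of 8. Of all genes, 31% were lower and 28.1% higher in that comparison. Against vector, G325E was lower for 11 of 30, 9 of 18 and 4 of 6 genes of these groups, where 23.3% of all genes were. It was higher for 1, 0 and 1 of them, where 38.6% of all genes were. Wild-type was lower than vector for 11 of 31, 8 of 19 and 3 of 8, where 16.5% of all genes were. It was higher for 1 gene in each group, where 31.9% of all genes were. These calls use numbers scaled to the same total, and whether they hold without scaling was not tested. Before scaling, the peaks of the 3 groups numbered 286, 189 and 56 in vector and 308, 205 and 124 with wild-type DDX3X. With 6 to 31 genes a group, these shares are imprecise.

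Of 35 other genes of the elongation pathway and its neighbours, 10 held a peak in any sample and 5 had at least 5 peaks in a sample. VARS, the valyl-tRNA synthetase that binds the eEF1 complex, had 9 peaks in vector, 18 with wild-type DDX3X and 11 with G325E, all coding. TUFM, which does the work of eEF1A in mitochondria, had 10, 13 and 11. The termination factors ETF1 and GSPT1 had 5, 9 and 6, and 8, 7 and 11. GTPBP1, a GTPase related to eEF1A, had 3, 7 and 4. All 5 were found in every sample.

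None of the 5 passed 2-fold between G325E and wild-type, with GSPT1 just under it (ratio 1.996), where 31% of all genes were lower and 28.1% higher. None of the 4 that could be tested did between G325E and vector, where 23.3% were lower and 38.6% higher. GSPT1 passed it in wild-type against vector (ratio 0.493, where 16.5% of all genes were lower), a call that came from the scaling, since the listed peaks were 7 against 8. The kinase of eEF2 (EEF2K), the enzymes that make hypusine (DHPS and DOHH) and 6 listed DPH genes of diphthamide synthesis held 0 peaks in each sample, apart from 1 G325E peak on DPH1, and are named after their values were seen. EIF5AL1, an intronless copy of EIF5A picked out after its values were seen, had 4 peaks in vector and 0 in wild-type and G325E.

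The genes whose peak numbers were most like those of each factor were found by the sum of absolute differences over 9 numbers (5′, coding and 3′ peaks in the 3 samples). For EEF1A1 it was TUBA1B, an alpha tubulin, with 12 coding peaks in vector, 20 with wild-type DDX3X and 0 with G325E (a sum of 2). For EEF1G it was MCL1, an apoptosis regulator, with 7, 10 and 8 coding peaks (a sum of 2). EEF1A2 was nearest to TFAP4, a transcription factor, with a sum of 6 for a gene with 16 peaks in these classes. EEF2 had no close match. The nearest was TRIM28, a chromatin corepressor, with 23, 28 and 27 coding peaks and a sum of 31. For EIF5A 4 genes tied at a sum of 15 (AUP1, BEX3, HES4 and U2AF2). These are descriptions over 3 libraries.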

How the data were processed

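Ribosome profiling was done in 3 samples, 1 per construct, grouped by title. Per the submitters' processing notes and the study's methods, the authors trimmed adapters with cutadapt, aligned reads with BWA 0.5.5 to NCBI Build 37 (hg19), RefSeq, exon-pair and AceView sequences, removed duplicates, called peaks where coverage reached a cut-off, merged and manually reviewed them, and annotated them with HOMER (version not given in the sources used here), giving 1 list per sample. The methods state these steps for CLIP-seq and say that the same peak detection was used here. The exon class of that annotation was taken as coding. The deposited values are peak positions in bp, with no count or score, so the reads behind a peak are unknown (the study tabulates reads per library, with wild-type deepest and G325E shallowest) and short or weakly covered mRNAs may be missed.

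The members and lists were chosen with earlier results of these data known. All 7 members are named, with pathway genes that had at least 5 peaks in a sample and, for members with at least 10, the gene nearest in pattern. RefSeq identifiers were matched to genes with RefSeq's gene table. Positions used GENCODE release 44 canonical transcripts on GRCh37. Peak starts lay 1 base inside exon starts (1597, 2857 and 1200 peaks in vector, wild-type and G325E, against 17, 32 and 30 at the exon start), so positions may be off by 1 base. Peaks of no length (163, 272 and 236, all given as minus strand) were taken as 1 base and kept whatever the strand. Intervals are 95% Wilson intervals and cover counting error only. Numbers skipped in the authors' peak numbering (1952, 3099 and 0 in the same order) are given by locus for vector and wild-type only. Sequences were read from GRCh37. Calculations used Python 3.11.15, pandas 2.3.3, numpy 2.4.6, statsmodels 0.14.6, pysam 0.24.0 and Biopython 1.88, and the fold rule and codon placement were tested on simulated data. The alternatives were gene assignment, strand, peak length, overlap, scaling and weighting. Assignment by the pairs in the files alone, the locus peaks and the shorter EEF1D form were added after seeing the data.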

Additional observations from a re-analysis of the deposited data

How the results depend on the processing

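No paired analysis was possible because each group is 1 library, and no replicate could be left out. Of 174 alternative values for the shares and counts, 143 stayed within the interval of the main share or within 1.5 times the main count. All 36 for the 5′ 50% share and all 18 for overlap did, but their intervals are wide and the peaks much the same. For the numbers of genes past 2-fold, 37 of 60 did. The order of wild-type and G325E in the 5′ 50% share was not stable. G325E was higher with locus peaks (47.8% against 46.1%) and with the shorter EEF1D form (49.1% against 48.7%). It was also higher without EEF1A1 (41.5% against 40.0%) and without EEF2, and lower in the other settings. Leaving out each gene in turn moved the 5′ 50% share between 28.8% (without EEF1G) and 37.1% (without EEF2) in vector, 38.5% and 53.8% in wild-type, and 34.1% and 54.5% in G325E. Assigning peaks by nearest gene name alone left 49 peaks in vector and 37 in G325E, and the coding peaks came to 31, 44 and 19 in the order vector, wild-type, G325E, since most EEF2 peaks are then credited to SNORD37. Counting promoter-TSS as 5′-UTR and TTS as 3′-UTR gave 5′-UTR shares of 12.5%, 17.5% and 14.3%.

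With at least 10 peaks required, 222 of 848 genes were lower and 211 higher in G325E against wild-type. For G325E against vector the numbers were 111 and 235 of 603. For wild-type against vector they were 67 and 167 of 623, where 1 of 5 factors was lower. With at least 1 peak, 1521 of 3748 genes and 2 of 7 factors were lower in G325E than in wild-type. The numbers lower and higher were 931 and 1100 of 3040 for the next comparison and 528 and 1281 of 3285 for the last. For wild-type against vector, lower genes of 1833 numbered 77 without scaling, 109 with scaling by the median of gene ratios and 152 by bases covered. In each of these settings 0 of 6 factors were lower. For G325E against vector these settings left 1 of 6 factors lower, as EIF5A passed the limit no more. Of 1834 genes, 324, 346 and 418 were lower in the same order of settings. By bases covered, 1 of 6 factors, EEF1A2 (ratio 2.19), was higher in G325E than in wild-type, where 650 of 2273 genes were.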
